A study of Mus musculus with 12 samples.

Results

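The lysosome is described here through 46 genes of its enzymes, membrane proteins, proton pump and transcription factors, chosen by their symbols among the 43280 genes of the deposited table. The genes were 7 membrane proteins, 11 proteases, 11 glycosidases and other enzymes of glycan breakdown, 6 lipid enzymes and activators, 3 phosphatases and progranulin as a group, 3 transcription factors of the MiT/TFE family and 5 subunits of the vacuolar ATPase. They were measured by poly(A)-selected RNA-seq in bone marrow-derived macrophages (BMDM), which are macrophages grown in culture from mouse marrow with the growth factor M-CSF. Wild type (wt) and Treml4-/- cells, both of C57BL6 background, were compared to ask how the receptor-like protein Treml4 acts on the inflammatory (M1) response. M0 cells were unstimulated and received the vehicle PBS, M1-8 h cells received LPS, a component of the bacterial wall, at 100 ng/ml for 8 h, and M1-12 h cells received the same dose for 12 h. There were 2 biological replicates for each of the 6 conditions and 12 libraries in all. The Treml4-/- allele, the age and sex of the mice and the time that M0 cells spent in vehicle are not given in the sources used here. Whether replicates came from separate mice is not stated either, so p-values measure the spread between these cultures, which may be partly technical.

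Lysosomes are acidic organelles in which macrophages break down what they engulf and recycle. The vacuolar ATPase (V-ATPase) pumps protons into the lumen, soluble hydrolases cut proteins, glycans and lipids at that low pH, and a coat of glycosylated membrane proteins shields the bilayer and carries products out. Many of these genes share a promoter element, the CLEAR element, with the E-box CACGTG at its core, which is bound by the factors TFEB, TFE3 and MITF when they are in the nucleus.

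The promoters that carry the long palindromic form of that box, TCACGTGA, are shown because the RNA of the factors that bind it was itself measured here. Windows from 250 bases before to 50 bases after a transcription start (RefSeq, GRCm38.p6) were found for 40 of the 46 genes and searched on both strands, on which both words read the same. Every TCACGTGA also counts as a CACGTG. A window of Ctsb, Ctsh, Asah1, Atp6v0d2, Atp6v1b2 or Atp6v1h was not used here. The E-box CACGTG was found at 13 of the 40 genes (32.5%), namely Lamp1, Cln3, Mcoln1, Ctsa, Ctsd, Ctsf, Ctsl, Gaa, Gla, Glb1, Naglu, Atp6v0d1 and Atp6v1a, against 8.093% of 27025 genes with such windows. The longer TCACGTGA was found at 7 of the 40 (17.5%), against 1.125% of the 27025. The 30 bases around the first such word of each are printed 5′ to 3′ on the strand of the gene, with the word in capitals.
Ctsa: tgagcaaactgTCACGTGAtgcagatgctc
Cln3: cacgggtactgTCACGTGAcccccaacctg
Ctsd: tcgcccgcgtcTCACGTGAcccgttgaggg
Mcoln1: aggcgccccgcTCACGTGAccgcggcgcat
Atp6v0d1: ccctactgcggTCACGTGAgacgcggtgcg
Atp6v1a: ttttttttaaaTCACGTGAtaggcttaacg
Gla: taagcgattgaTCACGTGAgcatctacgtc
They lie at chr2:164833749-164833778 (plus strand, Ctsa), chr7:126583340-126583369 (minus strand, Cln3), chr7:142387908-142387937 (minus strand, Ctsd), chr8:3500462-3500491 (plus strand, Mcoln1), chr8:105566050-105566079 (minus strand, Atp6v0d1), chr16:44139373-44139402 (minus strand, Atp6v1a) and chrX:134601215-134601244 (minus strand, Gla). In the GENCODE M21 annotation the stretches of Ctsa, Cln3, Ctsd and Mcoln1 overlap untranslated exons of longer models of the same genes, that of Atp6v1a is intronic, that of Gla overlaps an untranslated exon of Hnrnph2 on the opposite strand, and that of Atp6v0d1 meets no annotated gene. The word begins 99 bases before the start of Ctsd and 4 bases before that of Atp6v0d1, and the windows of Ctsa and Gla hold it at 2 positions each. These are matches of letters, and no binding was measured.

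Between 48008751 and 58500792 reads were counted on genes in each library. Levels are given as CPM, the reads of a gene scaled to a common library total, and 1 read was worth 0.0171 to 0.0208 CPM. Treml4 itself had 198 to 663 reads in the 6 wt libraries and no read in the 6 Treml4-/- libraries, where 3 reads would be 0.0513 to 0.0625 CPM. Macrophage markers (10 genes, Csf1r and Lyz2 among them) summed to 19295 to 26223 CPM at M0, 10313 to 13083 after 8 h and 9583 to 10936 after 12 h. These markers did not move together. Lyz2 (means 12236, 4949 and 3454 CPM at M0, 8 h and 12 h) and Csf1r (6047, 1162 and 1292 CPM) fell, as did Emr1 and Mrc1. Fcgr1 (63.0, 1193 and 1245 CPM), Mertk, Marco, Msr1, Cd14 and Itgam had higher means at both M1 times than at M0. Markers of T, B, mast, stromal and erythroid cells each summed to at most 6.48 CPM in any library. Cd3e was at or below 0.0193 CPM and Alas2 at 0. Other markers on these lists were detected, with Cd79b reaching 6.396 CPM, Cd4 5.235 CPM and Pdgfrb 4.66 CPM. Mean levels of Cd79b and Cd4 were highest at M0 and lower at both M1 times. Neutrophil and myeloid progenitor markers summed to 48.1 to 158 CPM. Markers of dendritic cells summed to 0.708 to 1.32 CPM at M0, 15.97 to 27.6 after 8 h and 15.2 to 29.6 after 12 h. Ccr7 was the highest of them at M1 (means 0.143, 11.8 and 14.6 CPM). Xcr1 (0, 5.33 and 3.34 CPM) and Clec9a (0.112, 1.83 and 1.96 CPM) rose as well. Flt3 was at or below 0.713 CPM, Zbtb46 at or below 0.337 and Siglech at or below 0.0928. The part of these other cells in the results was not tested.

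The counts of differentially expressed genes (DEG) below use limma on log2(CPM + 1), with all 12 libraries in a single model, p-values adjusted by Benjamini-Hochberg over the 12086 genes that reached 1 CPM or more in 2 or more libraries, and a DEG at adjusted p under 0.05 and a change of at least 1.4-fold. All 46 genes were tested. The scale itself differed between times. The 500 most abundant genes took 49.4 to 52.4% of reads at M0, 57.8 to 59.5% after 8 h and 60.6 to 61.9% after 12 h, and the median log2 fold change of all genes was -0.72 after 8 h and -0.76 after 12 h. Changes are therefore also given after median of ratios scaling, which sets the typical gene near 0 (-0.037 and -0.036). CPM are shares of the RNA in a library, so fewer cells that make a transcript and less of it per cell cannot be told apart, nor can a change in total RNA be seen. Adding 1 CPM before the logarithm understates the change of genes with low levels. Annotated exons of 15 of the 46 genes share bases with another gene, and in 13 of them with one on the opposite strand. Whether reads were counted by strand is not given in the sources used here, so these levels may hold reads of the neighbour.

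At M0, the genes spanned more than 3 orders of magnitude. Levels of different genes are set side by side only as CPM per kilobase of annotated exon. On that scale the aspartic protease Ctsd came first (mean 3793, range 3407 to 4281 over 4 libraries), followed by the invariant chain protease Ctss (3543, 3319 to 4009), the saposin precursor Psap (2900.1, 2720.2 to 3249) and the cysteine protease Ctsb (1925, 1803 to 2057). Ctsd and Ctss overlapped in range, whereas Ctss and Psap did not, nor did Psap and Ctsb. Cd68 (1321), Ctsz (977), Grn (874) and Lamp1 (847) followed, with Ctsz and Grn overlapping and Grn and Lamp1 overlapping. The lowest were Mitf (11.8), Atp6v1h (9.30), the channel Mcoln1 (8.99) and Ctsf (3.12), with Atp6v1h and Mcoln1 overlapping. At M1-8 h Ctss (2029.8, 1749.8 to 2459) headed the order and overlapped with Psap (1756, 1603 to 1993), Ctsd was at 1219, beside Ctsb at 1309, with which it overlapped, and Tfeb (1.15) was last but one above Ctsf (0.870). At M1-12 h Psap (4166, 3816 to 4480.4) stood first and apart from Ctss (2559.9, 2375 to 2671).

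As a whole, the 46 genes took up 5.56 to 6.29% of all reads at M0, 3.17 to 3.59% after 8 h and 4.31 to 4.68% after 12 h. The 4 libraries of each time did not overlap with those of another. Without Psap the shares were 4.82 to 5.39%, 2.73 to 3.05% and 3.26 to 3.46%, and these did not overlap between times either.

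At M1-8 h against M0, with both genotypes averaged, 33 of the 46 genes (71.7%) were lower and 4 (8.7%) were higher, and 9 were not DEG. Among all 12086 genes tested, 59.8% were lower and 17.1% were higher on the same scale, and the median of the 46 (-0.77 on the log2 scale) lay beside the median of all genes (-0.72). With median of ratios scaling 13 of the 46 (28.3%) were lower and 10 (21.7%) higher, beside 31.4% and 31.1% of all genes. The share lower was thus above that of all genes by CPM and below it with median of ratios scaling, and the share higher was below that of all genes on both. Among the 4445 genes that reached 50 CPM, 51.7% were lower and 26.3% higher, and of the 44 lysosomal genes among them 31 were lower and 4 higher. Median of ratios scaling over genes with a mean of at least 50 CPM, tried after the data were seen, lay between the others, with 23 of the 46 lower and 5 higher beside 50.2% and 20.4% of all genes. By role the lower ones were 2 membrane proteins, 7 proteases, 9 glycosidases, 3 lipid genes, 1 MiT/TFE factor and 1 V-ATPase subunit. Elsewhere median of ratios scaling means that over all genes. In every one of the 29 alternatives in which they were tested, the same 4 genes were higher (Lamp2, Cln3, Ctsc and Mitf) and 12 were lower (Ctsd, Ctsf, Ctsk, Gusb, Hexa, Idua, Manba, Naglu, Lipa, Smpd1, Tfeb and Atp6v0d2). The share of all genes whose calls held in every alternative is not given, here or below. Whether the 46 genes held more often than other genes was therefore not tested.

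At M1-12 h against M0, 30 genes (65.2%) were lower and 5 (10.9%) higher, beside 60.3% and 16.3% of all genes, and the median was -0.76 for the 46 and -0.76 for all genes. Median of ratios scaling gave 10 lower (21.7%) and 13 higher (28.3%), beside 32.6% and 32.7% of all genes. With that scaling over genes of at least 50 CPM, 22 were lower and 8 higher beside 49.9% and 21.2% of all genes, the lower ones being 3 membrane proteins, 5 proteases, 8 glycosidases, 3 lipid genes, 1 MiT/TFE factor and 2 V-ATPase subunits. Among the genes of at least 50 CPM, 52.6% were lower and 24.1% higher, with 28 and 5 of the 44. Lamp2, Ctsc, Ctsh and Gla were higher, and Ctsd, Ctsf, Gusb, Hexa, Man2b1, Manba, Lipa, Tfeb and Atp6v0d2 lower, in every alternative in which they were tested. The M1-8 h and M1-12 h comparisons share the M0 libraries. The plot of lysosomal genes against all genes sets these shifts side by side.

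**Figure D1:**
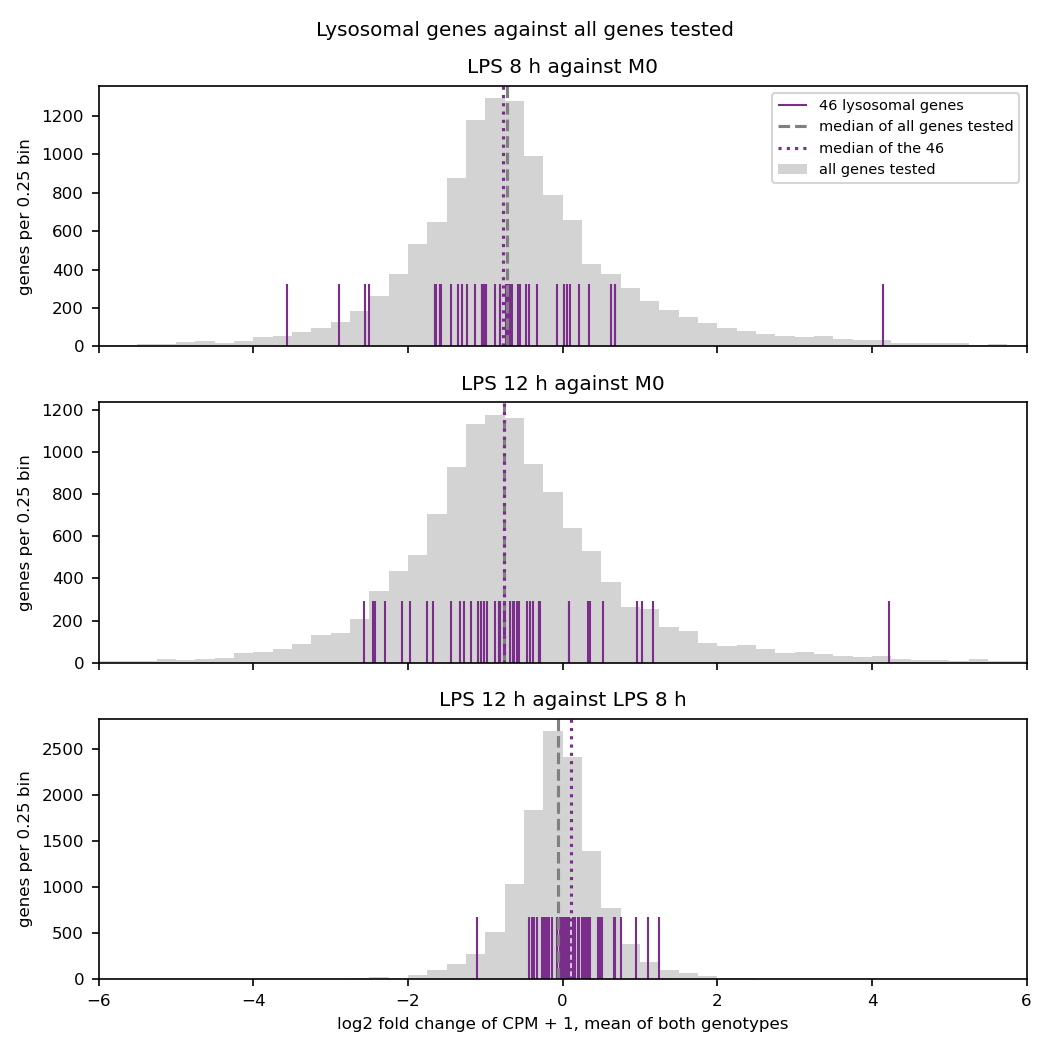
Histograms of the log2 fold change of CPM + 1 (x axis) over the 12086 genes tested (y axis, genes per bin of 0.25), with each of the 46 lysosomal genes as a purple line, for M1-8 h against M0, M1-12 h against M0 and M1-12 h against M1-8 h. The dotted median of the 46 lies on the dashed median of all genes in the upper panels (-0.77 and -0.72, -0.76 and -0.76) and to its right in the lowest (0.11 and -0.057); under median of ratios scaling the upper medians move to 0.026 and -0.037 and to 0.090 and -0.036.

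The 3 MiT/TFE factors parted ways under LPS. Tfeb (chr17:47737030-47792419, GRCm38) encodes the factor best known for driving lysosomal gene expression. It was at 82.7 and 101 CPM in wt and 87.1 and 79.5 in Treml4-/- cells at M0, 6.40 and 6.59 CPM in wt and 6.38 and 6.62 in Treml4-/- cells after 8 h, and 14.3 and 13.1 CPM in wt and 15.6 and 17.8 in Treml4-/- cells after 12 h. No M1 library came near an M0 library, and Tfeb fell with a log2 fold change of -3.56 (SE 0.08, limma adjusted p = 7.81e-12) after 8 h and a log2 fold change of -2.45 (SE 0.08, limma adjusted p = 1.48e-10) after 12 h. With median of ratios scaling the changes were -2.80 and -1.63, so Tfeb stood well below the shift of the transcriptome on either scale. Between M1-8 h and M1-12 h it rose again, with a log2 fold change of 1.10 (SE 0.08, limma adjusted p = 1.06e-06), with all 4 later libraries above the 4 earlier ones.

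Mitf, the melanocyte and osteoclast member of the family, was at 76.7 and 66.6 CPM in wt and 69.5 and 79.0 in Treml4-/- cells at M0, 86.9 and 107 CPM in wt and 119 and 145 in Treml4-/- cells after 8 h, and 91.1 and 92.3 CPM in wt and 98.3 and 91.4 in Treml4-/- cells after 12 h. It rose after 8 h with a log2 fold change of 0.62 (SE 0.09, limma adjusted p = 3.91e-05), and after 12 h its log2 fold change of 0.35 was under the 1.4-fold limit. By genotype, the change after 8 h was 0.42 in wt cells, under that limit, and 0.82 in Treml4-/- cells, where Mitf was a DEG. Tfe3, which overlaps with Tfeb in the genes it drives, was at 215 and 253 CPM in wt and 224 and 213 in Treml4-/- cells at M0, 152 and 145 CPM in wt and 140.1 and 133 in Treml4-/- cells after 8 h, and 138 and 135 CPM in wt and 142 and 147 in Treml4-/- cells after 12 h. Its CPM were lower at both times, with log2 fold changes of -0.66 and -0.68, but 0.14 and 0.17 under median of ratios scaling, where it was not a DEG. Per kilobase of exon, the mean levels at M0 were 24.4 CPM for Tfe3, 15.5 for Tfeb and 11.8 for Mitf, and after 8 h they were 18.5 for Mitf, 15.4 for Tfe3 and 1.15 for Tfeb, so Tfeb passed from second to last of the 3.

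**Figure D2:**
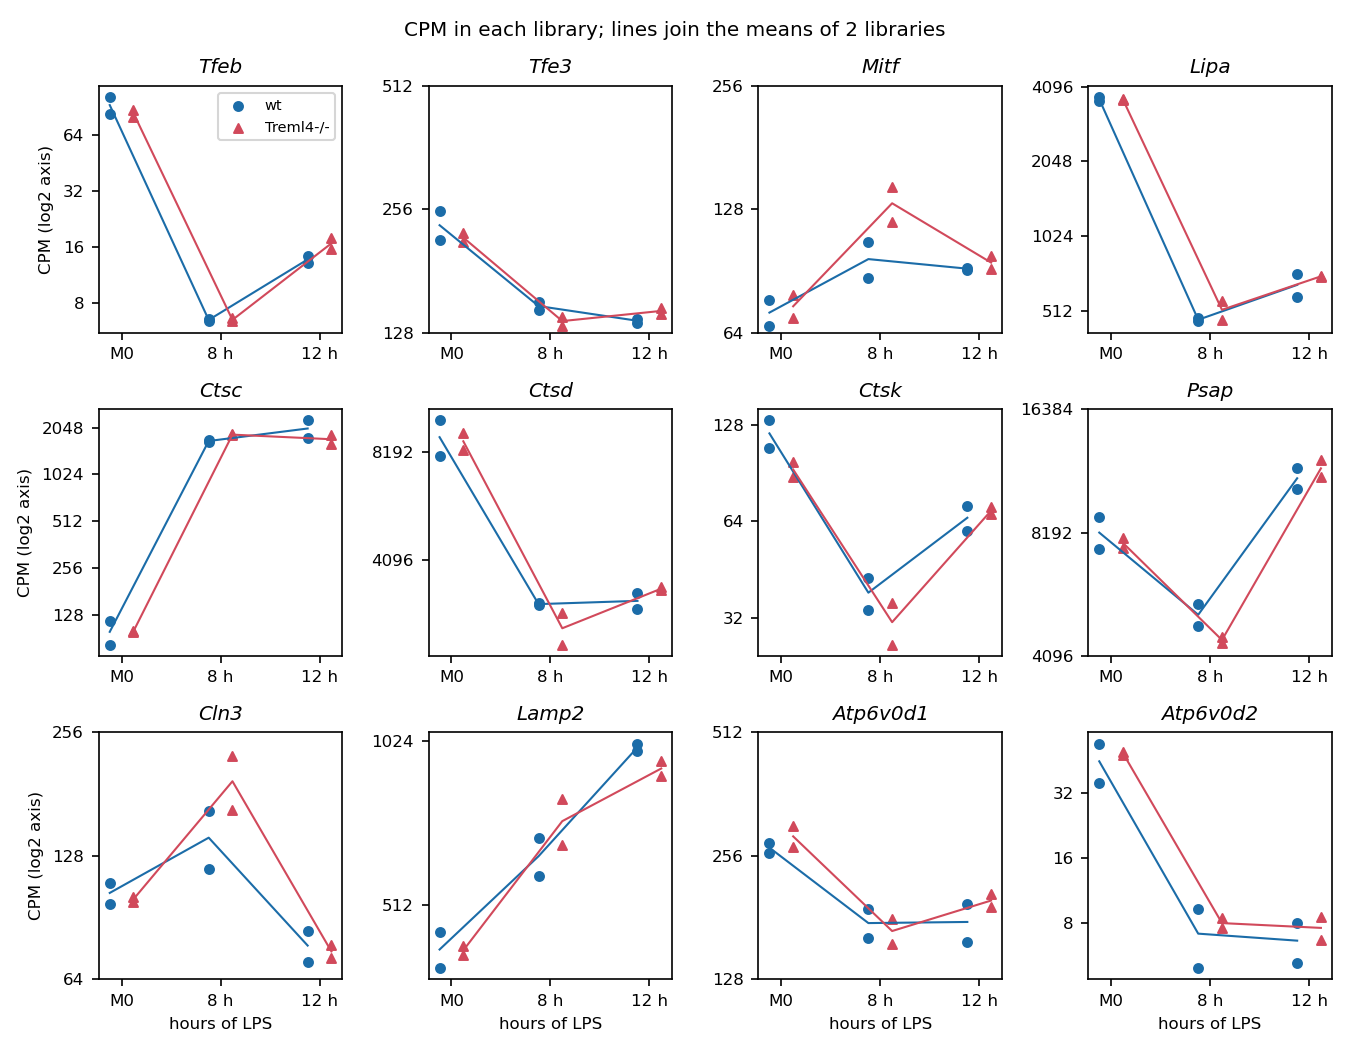
CPM (y axis, log2 scale) of 12 lysosomal genes at M0, 8 h and 12 h of LPS in each of the 12 libraries, wt as circles and Treml4-/- as triangles, with lines through the means of 2 libraries. Tfeb, Lipa, Ctsd and Atp6v0d2 fell on every scale tested, Ctsc and Lamp2 rose, Psap dipped at 8 h and passed its M0 level at 12 h by CPM, and Tfe3 and Atp6v0d1 were lower by CPM but not under median of ratios scaling.

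Counts by role stand beside the shares of all genes, 59.8% lower and 17.1% higher after 8 h and 60.3% and 16.3% after 12 h. Under median of ratios scaling these shares were 31.4% and 31.1%, then 32.6% and 32.7%. Of the 7 membrane proteins, 4 were lower and 2 higher after 8 h, and 5 were lower and 1 higher after 12 h, whereas under median of ratios scaling none was lower at either time and 2 and 1 were higher. Lamp2 encodes a main glycoprotein of the lysosomal membrane with a part in autophagy. It was at 456 and 393 CPM in wt and 415 and 431 in Treml4-/- cells at M0, 579 and 681 CPM in wt and 660.2 and 801 in Treml4-/- cells after 8 h, and 983 and 1014 CPM in wt and 942 and 884 in Treml4-/- cells after 12 h. The 3 times were fully separated, and Lamp2 rose with a log2 fold change of 0.67 (SE 0.08, limma adjusted p = 8.82e-06) after 8 h and with a log2 fold change of 1.17 (SE 0.08, limma adjusted p = 5.71e-08) after 12 h. Its sister Lamp1, the other main membrane glycoprotein, was at 2331 and 2239.9 CPM in wt and 2279 and 2211 in Treml4-/- cells at M0, 1489 and 1467 CPM in wt and 1398 and 1329 in Treml4-/- cells after 8 h, and 1479.5 and 1507 CPM in wt and 1529.6 and 1508 in Treml4-/- cells after 12 h. Lamp1 CPM were lower at both times, with log2 fold changes of -0.67 and -0.59 that turned to 0.13 and 0.26 under median of ratios scaling, where Lamp1 and Lamp2 no longer had opposite signs.

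Cln3 encodes a membrane protein whose loss causes juvenile Batten disease. It was at 97.8 and 110.0 CPM in wt and 102 and 98.8 in Treml4-/- cells at M0, 164 and 119 CPM in wt and 165 and 224 in Treml4-/- cells after 8 h, and 70.6 and 83.9 CPM in wt and 72.0 and 77.5 in Treml4-/- cells after 12 h. The M1-8 h libraries were above all others but spread from 119 to 224 CPM, and the rise had a log2 fold change of 0.68 (SE 0.12, limma adjusted p = 1.77e-04). By genotype, the change after 8 h was 0.43 in wt cells, under the fold limit, and 0.93 in Treml4-/- cells, where Cln3 was a DEG. The rise was reversed by M1-12 h, when Cln3 was the single gene of the 46 that was lower than after 8 h (log2 fold change -1.10, SE 0.12, limma adjusted p = 1.37e-05). Its exons share 442 bases with Apobr on the opposite strand, which had 209 to 235 CPM at M0 and 63.3 to 77.9 after 8 h.

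Cd68, a membrane glycoprotein used as a macrophage marker, was at 1418 and 1881 CPM in wt and 1692 and 1653 in Treml4-/- cells at M0, 840.1 and 855 CPM in wt and 766 and 756 in Treml4-/- cells after 8 h, and 957 and 824 CPM in wt and 929 and 1036 in Treml4-/- cells after 12 h. The cation channel gene Mcoln1 was at 64.3 and 67.3 CPM in wt and 70.9 and 69.2 in Treml4-/- cells at M0, 39.6 and 42.2 CPM in wt and 39.8 and 41.8 in Treml4-/- cells after 8 h, and 42.2 and 44.1 CPM in wt and 41.3 and 44.3 in Treml4-/- cells after 12 h. Both were lower by CPM after 8 h (-1.04 and -0.72) and after 12 h (-0.82 and -0.65), with values of -0.24, 0.065, 0.027 and 0.19 in that order under median of ratios scaling. The tetraspanin Cd63 had log2 fold changes of -0.98 and -1.18, and Scarb2, the receptor that carries glucocerebrosidase to lysosomes, -0.47 and -0.81, of which the first was under the fold limit.

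Of the 11 proteases, 8 were lower and 1 higher after 8 h, and 6 were lower and 2 higher after 12 h, with 3 lower and 3 higher and then 2 lower and 4 higher under median of ratios scaling. Ctsc (chr7:88278085-88310888), the dipeptidyl peptidase that activates serine proteases of granules, had by far the largest rise of the 46. It was at 116 and 81.9 CPM in wt and 100.4 and 99.5 in Treml4-/- cells at M0, 1658 and 1696 CPM in wt and 1863 and 1824 in Treml4-/- cells after 8 h, and 1763 and 2276 CPM in wt and 1829.8 and 1613 in Treml4-/- cells after 12 h. The M0 libraries held at most 116 CPM and the M1 libraries at least 1613, with a log2 fold change of 4.14 (SE 0.11, limma adjusted p = 1.93e-11) after 8 h and a log2 fold change of 4.22 (SE 0.11, limma adjusted p = 1.75e-11) after 12 h. By CPM per kilobase Ctsc moved from 17.1 at M0 to 303 and 322.

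Ctsd, an aspartic protease, had the highest CPM per kilobase of exon at M0. It was at 8009 and 10065 CPM in wt and 9275 and 8324 in Treml4-/- cells at M0, 3070.4 and 3107 CPM in wt and 2909 and 2379.9 in Treml4-/- cells after 8 h, and 3308 and 3000.2 CPM in wt and 3382 and 3441 in Treml4-/- cells after 12 h. Ctsd fell with a log2 fold change of -1.64 (SE 0.09, limma adjusted p = 1.00e-08) after 8 h and a log2 fold change of -1.44 (SE 0.09, limma adjusted p = 2.96e-08) after 12 h, and the values were -0.84 and -0.59 under median of ratios scaling. Ctsf, a cysteine protease of low level, was at 14.2 and 18.2 CPM in wt and 15.8 and 14.8 in Treml4-/- cells at M0, 4.88 and 5.20 CPM in wt and 4.31 and 3.15 in Treml4-/- cells after 8 h, and 2.53 and 3.79 CPM in wt and 2.54 and 3.06 in Treml4-/- cells after 12 h. Ctsf fell with a log2 fold change of -1.65 (SE 0.13, limma adjusted p = 1.41e-07) after 8 h and a log2 fold change of -2.08 (SE 0.13, limma adjusted p = 1.66e-08) after 12 h. Of the Ctsd exon bases, 34.4% are shared with the annotated gene Gm49369 of the same strand, so reads on them could have been split or set aside in the counting.

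Ctsk, the collagen-degrading protease known from osteoclasts, was at 108 and 132 CPM in wt and 97.6 and 87.9 in Treml4-/- cells at M0, 34.0 and 42.8 CPM in wt and 35.7 and 26.5 in Treml4-/- cells after 8 h, and 71.4 and 59.9 CPM in wt and 67.4 and 70.7 in Treml4-/- cells after 12 h. The M1-8 h libraries were the lowest, with a log2 fold change of -1.59 (SE 0.11, limma adjusted p = 7.03e-08). At M1-12 h the 4 libraries lay between those of the other times, with a log2 fold change of -0.64 (SE 0.11, limma adjusted p = 2.11e-04), a fall by CPM that was 0.20 under median of ratios scaling.

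Ctsl, a cysteine endopeptidase, was at 2823 and 2414 CPM in wt and 2997 and 2887 in Treml4-/- cells at M0, 1430.4 and 1081 CPM in wt and 1571 and 1353 in Treml4-/- cells after 8 h, and 1183 and 789 CPM in wt and 1444 and 1283 in Treml4-/- cells after 12 h. The protease Ctss was at 4539 and 5444 CPM in wt and 4507 and 4758 in Treml4-/- cells at M0, 2376 and 3339 CPM in wt and 2684 and 2626 in Treml4-/- cells after 8 h, and 3225 and 3583 CPM in wt and 3627 and 3471 in Treml4-/- cells after 12 h. Ctsb was at 10912 and 12447 CPM in wt and 11709 and 11523 in Treml4-/- cells at M0, 8222 and 8203 CPM in wt and 8019.6 and 7248 in Treml4-/- cells after 8 h, and 9516 and 8823 CPM in wt and 9446 and 10034 in Treml4-/- cells after 12 h. At M1-8 h these 3 had log2 fold changes of -1.04, -0.81 and -0.56 and were DEG by CPM, with -0.24, -0.011 and 0.24 under median of ratios scaling, where none was. At M1-12 h Ctsl was lower (-1.27), and Ctss (-0.47) and Ctsb (-0.30) were within the fold limit.

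Ctsh, an aminopeptidase, was at 235 and 304 CPM in wt and 273 and 256 in Treml4-/- cells at M0, 300.1 and 340.0 CPM in wt and 324 and 270.1 in Treml4-/- cells after 8 h, and 481 and 614 CPM in wt and 491 and 498 in Treml4-/- cells after 12 h. At M1-8 h it overlapped with M0, and after 12 h it was above all other libraries, with a log2 fold change of 0.96 (SE 0.10, limma adjusted p = 2.96e-06). Ctsz, a carboxypeptidase, did not pass the fold limit at either time by CPM (log2 fold change 0.019 and 0.34), and was higher under median of ratios scaling (0.82 and 1.19). The carboxypeptidase Ctsa, which protects Neu1 and Glb1 in a complex, had -0.88 and -0.88, and the tripeptidyl peptidase Tpp1 had -1.02 and -1.06. Both were lower by CPM and not under median of ratios scaling.

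Of the 11 glycosidases and their partners, 9 were lower after 8 h and 10 after 12 h, beside 59.8% and 60.3% of all genes. After 8 h, 8 of 11 proteases and 5 of 6 lipid genes were also lower. After 12 h, 1 of the 11 was higher. Under median of ratios scaling 6 and 5 of the 11 were lower and Gla was higher at both times. Manba (chr3:135485611-135571404), which removes mannose from glycans, was at 102 and 86.5 CPM in wt and 97.1 and 96.8 in Treml4-/- cells at M0, 16.8 and 11.8 CPM in wt and 17.6 and 15.7 in Treml4-/- cells after 8 h, and 18.2 and 11.9 CPM in wt and 23.4 and 23.9 in Treml4-/- cells after 12 h. All M1 libraries lay far below the M0 libraries, with a log2 fold change of -2.56 (SE 0.13, limma adjusted p = 4.64e-09) after 8 h and a log2 fold change of -2.29 (SE 0.13, limma adjusted p = 1.13e-08) after 12 h. Naglu, an enzyme of heparan sulfate breakdown, was at 106 and 116 CPM in wt and 126 and 114 in Treml4-/- cells at M0, 37.0 and 37.7 CPM in wt and 37.7 and 31.5 in Treml4-/- cells after 8 h, and 43.9 and 43.9 CPM in wt and 44.1 and 50.1 in Treml4-/- cells after 12 h. It fell by CPM at both times, with a log2 fold change of -1.66 (SE 0.08, limma adjusted p = 1.52e-09) after 8 h and a log2 fold change of -1.33 (SE 0.08, limma adjusted p = 9.56e-09) after 12 h, and the second was not a DEG once GC content and length were corrected for.

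Hexa, the alpha subunit of the hexosaminidase that degrades the ganglioside GM2, was at 1016 and 1214 CPM in wt and 1105 and 1043 in Treml4-/- cells at M0, 386 and 410.3 CPM in wt and 364 and 304 in Treml4-/- cells after 8 h, and 271 and 276 CPM in wt and 272 and 296 in Treml4-/- cells after 12 h. It fell further with time, with a log2 fold change of -1.58 (SE 0.08, limma adjusted p = 2.64e-09) after 8 h and a log2 fold change of -1.97 (SE 0.08, limma adjusted p = 4.20e-10) after 12 h, with the M1-12 h libraries below the M1-8 h libraries. Man2b1, an alpha-mannosidase, had the same order, with -1.31 and -1.67, and for both genes the step between M1-8 h and M1-12 h was under the fold limit. Gusb, the beta-glucuronidase, had log2 fold changes of -1.57 and -1.75, with overlapping libraries at the M1 times. Idua (-1.44 and -1.10), which cleaves iduronate, was also lower at both times, the second not under median of ratios scaling (-0.27).

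Gla, the alpha-galactosidase that clears globotriaosylceramide, went the other way and was at 226 and 209 CPM in wt and 249.9 and 232 in Treml4-/- cells at M0, 292 and 317 CPM in wt and 287 and 272 in Treml4-/- cells after 8 h, and 482 and 471 CPM in wt and 442 and 473 in Treml4-/- cells after 12 h. The 3 times were fully separated, with a log2 fold change of 0.35 after 8 h, under the fold limit, and a rise with a log2 fold change of 1.02 (SE 0.06, limma adjusted p = 9.46e-09) after 12 h. The others were lower by CPM after 12 h, all but Ids also after 8 h, and were not DEG under median of ratios scaling. These were the alpha-glucosidase Gaa (-1.24 and -0.75), the beta-galactosidase Glb1 (-0.99 and -1.02), the sialidase Neu1 (-1.14 and -0.63) and the iduronate sulfatase Ids (-0.43 and -0.83).

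Among the 6 lipid enzymes and activators, 5 were lower after 8 h, and 4 were lower and 1 higher after 12 h, with 2 lower and 1 higher and then 1 lower and 2 higher under median of ratios scaling. Lipa (chr19:34492318-34527474), the acid lipase that frees cholesterol and fatty acids from engulfed lipoproteins, was at 3581 and 3719 CPM in wt and 3659 and 3608 in Treml4-/- cells at M0, 477 and 463 CPM in wt and 561 and 470.1 in Treml4-/- cells after 8 h, and 582 and 718 CPM in wt and 701 and 706 in Treml4-/- cells after 12 h. It fell with a log2 fold change of -2.89 (SE 0.08, limma adjusted p = 2.37e-11) after 8 h and with a log2 fold change of -2.43 (SE 0.08, limma adjusted p = 9.66e-11) after 12 h, with -2.09 and -1.58 under median of ratios scaling. Smpd1, the acid sphingomyelinase, had log2 fold changes of -1.35 and -1.06, and the second was lost under median of ratios scaling (-0.23).

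Psap (chr10:60277627-60302597), the precursor of the saposins that present sphingolipids to their hydrolases, was at 7464 and 8915 CPM in wt and 7923 and 7529 in Treml4-/- cells at M0, 4852 and 5469 CPM in wt and 4558 and 4398 in Treml4-/- cells after 8 h, and 11756 and 10469.7 CPM in wt and 11205 and 12294 in Treml4-/- cells after 12 h. It was lowest after 8 h in all 4 libraries, with a log2 fold change of -0.72 that was 0.075 under median of ratios scaling, and highest after 12 h. The M1-12 h value against M0 had a log2 fold change of 0.52 (SE 0.08, limma adjusted p = 1.03e-04), close to the fold limit, and it did not pass without wt replicate 1 of M0, without wt replicate 1 of M1-12 h or under quantile normalization (0.46, 0.48 and 0.13). In that comparison Psap remained a DEG under both median of ratios scalings. By genotype its change after 12 h was 0.44 in wt cells, under the fold limit, and 0.60 in Treml4-/- cells. The ceramidase Asah1 (-0.72 and -0.98) and the GM2 activator Gm2a (-0.81 and -0.76) were lower by CPM and not under median of ratios scaling. The depalmitoylating thioesterase Ppt1 had 99.1 to 130 CPM over the 12 libraries and log2 fold changes of 0.057 and 0.079, which were 0.85 and 0.92 under median of ratios scaling.

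Grn, the progranulin gene, was at 2919.8 and 3123 CPM in wt and 3231 and 2870.4 in Treml4-/- cells at M0, 2245 and 2176 CPM in wt and 1921 and 1813 in Treml4-/- cells after 8 h, and 2581 and 2421 CPM in wt and 2342 and 2516 in Treml4-/- cells after 12 h. It was lower after 8 h by CPM (-0.58) but 0.22 under median of ratios scaling, and after 12 h -0.30 by CPM and 0.55 under that scaling, where it was called higher. Acp5, the tartrate-resistant phosphatase used as an osteoclast marker, was at 43.6 and 44.9 CPM in wt and 59.0 and 47.1 in Treml4-/- cells at M0, 49.4 and 71.4 CPM in wt and 52.0 and 38.2 in Treml4-/- cells after 8 h, and 36.1 and 49.0 CPM in wt and 36.2 and 37.5 in Treml4-/- cells after 12 h. Its groups overlapped, with log2 fold changes of 0.090 (SE 0.14) and -0.29 (SE 0.14). The lysosomal acid phosphatase Acp2 had -0.33 and 0.33, both under the fold limit by CPM. Under median of ratios scaling Acp5 (0.87 and 0.54) was higher at both times, and Acp2 (1.18) after 12 h.

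Of the 5 V-ATPase subunits, 4 were lower after 8 h and 3 after 12 h, but under median of ratios scaling only Atp6v0d2 was lower at each time and Atp6v1h was higher. Atp6v0d2 (chr4:19876841-19922605), the d subunit isoform known from osteoclasts and macrophages, was at 35.7 and 54.5 CPM in wt and 48.3 and 49.97 in Treml4-/- cells at M0, 4.95 and 9.32 CPM in wt and 7.57 and 8.40 in Treml4-/- cells after 8 h, and 5.24 and 8.00 CPM in wt and 6.67 and 8.51 in Treml4-/- cells after 12 h. It fell with a log2 fold change of -2.50 (SE 0.19, limma adjusted p = 1.23e-07) after 8 h and with a log2 fold change of -2.57 (SE 0.19, limma adjusted p = 9.20e-08) after 12 h. Its widely expressed counterpart Atp6v0d1 was at 260.0 and 276 CPM in wt and 302 and 269 in Treml4-/- cells at M0, 189.7 and 161 CPM in wt and 179.8 and 156 in Treml4-/- cells after 8 h, and 195 and 158 CPM in wt and 191 and 207 in Treml4-/- cells after 12 h. It was lower by CPM at both times, with log2 fold changes of -0.69 and -0.56, which became 0.11 and 0.29 under median of ratios scaling. Per kilobase of exon the d1 isoform had a mean of 154 CPM at M0 and 95.7 after 8 h, beside 17.4 and 2.78 for d2. The catalytic subunit Atp6v1a (-0.73 and -0.39), the subunit Atp6v1b2 (-0.68 and -0.82) and the regulatory Atp6v1h (-0.068 and 0.086) had smaller CPM changes than Atp6v0d2.

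Ctsk, Acp5 and Atp6v0d2 are also products of osteoclasts, which grow from the same precursors. Of 7 osteoclast markers outside the 46, Calcr and Oscar were at or below 0.198 CPM in every library. The sum of the 7 was 123 to 128 CPM at M0, 44.8 to 53.6 after 8 h and 43.8 to 52.1 after 12 h. Nfatc1 fell, with means of 99.9, 22.9 and 22.1 CPM, as did Itgb3 (3.88, 1.70 and 1.45) and Mmp9 (2.22, 1.51 and 1.41). Dcstamp had means of 14.8, 14.1 and 9.50 CPM, and Ocstamp rose (3.97, 7.11 and 13.1 CPM). The part of such cells in these results was not tested.

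**Figure D3:**
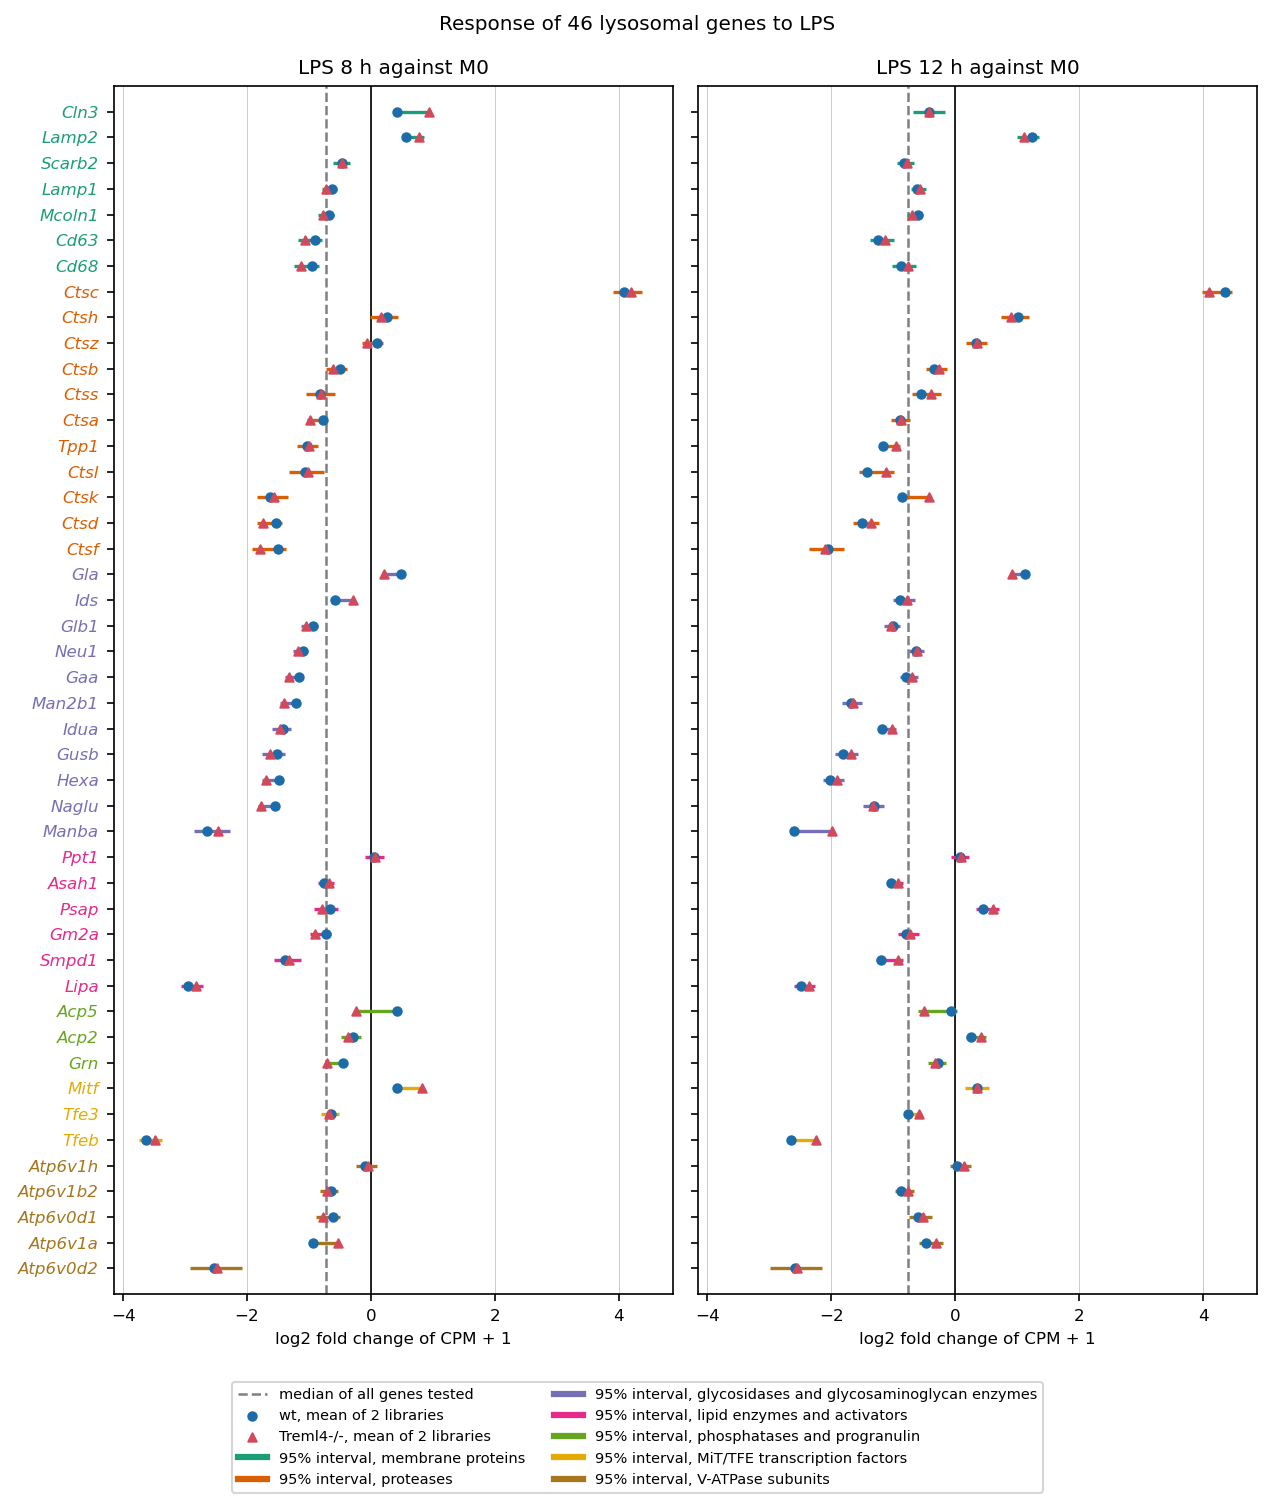
Log2 fold change of CPM + 1 (x axis) of the 46 genes after 8 h and 12 h against M0, grouped by role, with circles for wt and triangles for Treml4-/- (each a mean of 2 libraries against 2), bars for the 95% interval of the mean of both genotypes and a dashed line at the median of all genes. Ctsc stands alone at 4.14 and 4.22, Tfeb, Lipa, Manba and Atp6v0d2 lie between -3.56 and -2.29, and most others lie nearer the dashed line.

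The 13 genes with a CACGTG in their promoter window and the 27 without had medians close to each other. At M1-8 h their medians were -0.88 and -0.81, with 11 of 13 and 18 of 27 lower by CPM, beside 59.8% of all genes. After 12 h their medians were -0.75 and -0.76. The 7 genes with TCACGTGA ranged from -1.64 for Ctsd to 0.68 for Cln3 after 8 h, with a median of -0.72, beside -0.99 for the 33 without. The sequences of Cln3, which rose, and Ctsd, which fell, thus carry the same word.

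Between M1-8 h and M1-12 h, 9 of the 46 genes (19.6%) rose and 1 (2.2%) fell, beside 13.5% and 18.7% of all genes, and 10 rose and 1 fell under median of ratios scaling, beside 15.5% and 17.1%. The median of the 46 was 0.11 and that of all genes -0.057. Psap rose the most (log2 fold change 1.25, SE 0.08, limma adjusted p = 4.99e-07), followed by Tfeb, Ctsk (log2 fold change 0.95, SE 0.11, limma adjusted p = 3.01e-05), Ctsh (log2 fold change 0.75, SE 0.10, limma adjusted p = 8.93e-05), Gla (0.68), Acp2 (0.66), Neu1 (0.51), Lamp2 (0.50) and Gaa (0.49). Tfeb, Psap, Ctsk, Ctsh, Gla and Acp2 passed in every alternative. Lamp2, Gaa and Neu1 were close to the fold limit. Lamp2 did not pass without wt M1-8 h replicate 1 (0.44), Treml4-/- M1-8 h replicate 1 (0.43) or Treml4-/- M1-12 h replicate 1 (0.47). Gaa did not pass without wt M1-8 h replicate 1 (0.48), wt M1-12 h replicate 1 (0.44), Treml4-/- M1-8 h replicate 2 (0.46) or Treml4-/- M1-12 h replicate 2 (0.45). Its call was also lost under the GC and length correction, with and without the replicate block. Neu1 did not pass without Treml4-/- M1-12 h replicate 2 (0.47). Lipa (0.46) was just under the limit, with all 4 later libraries above the earlier ones, and passed in 8 of the 29 alternatives. These were both median of ratios scalings (0.51 in each), quantile normalization (0.51), no fold limit (0.46), the GC and length correction with and without the block (0.60 in both), and the fits without wt M1-12 h replicate 1 (0.53) or Treml4-/- M1-8 h replicate 1 (0.52).

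The rest of the lysosome was looked at through 110 other genes in 6 lists, of which 97 were tested. At M1-8 h 60 of the 97 were lower and 10 higher, beside the 59.8% and 17.1% of all genes, and 32 were lower and 30 higher under median of ratios scaling, beside 31.4% and 31.1%. At M1-12 h 54 were lower and 12 higher, beside 60.3% and 16.3%, and 29 and 39 under median of ratios scaling, beside 32.6% and 32.7%. Of 29 other hydrolases and activators, 23 were lower and none higher after 8 h, and under median of ratios scaling 12 were lower and 4 higher. Of 9 sorting receptors and adaptors 7 were lower and 1 higher, with 5 and 2 under that scaling. The 23 other membrane and transport proteins had 12 lower and 4 higher (8 and 9), the 17 genes of nutrient sensing and TFEB control 10 and 1 (6 and 6), the 14 other V-ATPase genes 6 and 3 (1 and 6), and the 5 cathepsin inhibitors 2 and 1 (0 and 3).

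The largest falls among them after 8 h were in Tpcn1, a cation channel of endosomes and lysosomes, with means of 287, 7.48 and 10.3 CPM at the 3 times, in Sgsh, a sulfamidase of heparan sulfate breakdown (72.5, 1.85 and 4.85 CPM), and in Gga2, a sorting adaptor (65.2, 4.77 and 3.74 CPM). Their log2 fold changes were -5.09, -4.69 and -3.53. At M1-12 h Tpcn1 (-4.68), the sorting receptor Sort1 (-4.54) and the galactosylceramidase Galc (-3.90) had fallen the most. Cst7, an inhibitor of cathepsins, was at 0.600, 27.4 and 49.0 CPM and rose the most at both times (4.14 and 4.96). The next were the peptide and histidine transporter Slc15a3, at 171, 1466 and 1698 CPM (3.11 and 3.32), and the membrane sialomucin Cd164, at 14.4, 87.4 and 168 CPM (2.53 and 3.47).

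The responses were then compared between genotypes. At M1-8 h 32 genes were lower and 2 (Lamp2 and Ctsc) higher in both genotypes, beside 55.9% and 15.5% of all genes. Cln3 and Mitf were called higher in Treml4-/- cells only, and neither was a DEG in the interaction. At M1-12 h 29 genes were lower and 4 higher in both, beside 57.8% and 15% of all genes, and no gene was called in opposite directions. These calls came from the single model of all 12 libraries, so both genotypes share its estimate of the spread. The sign of the change was shared by 44 and 46 of the 46 genes. The exceptions after 8 h were Ctsz and Acp5, neither of them called.

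Between wt and Treml4-/- cells, none of the 46 genes was a DEG in limma at M0, M1-8 h or M1-12 h, for the mean over the 3 times, or in the interaction of genotype with LPS after 8 h or 12 h. limma voom on the recovered reads gave none either. Among all genes the shares called were 0.0993%, 0.091%, 0.132%, 0.414%, 0.00827% and 0.00827% in the same order. An unadjusted p under 0.05 was reached by 1, 7, 6, 8, 3 and 2 of the 46 genes, beside 3.35%, 21.0%, 7.55%, 20.1%, 6.67% and 3.82% of all genes. The 95% intervals of the genotype difference lay wholly under 1.4-fold for 42 genes at M0, 33 after 8 h and 37 after 12 h, so a change of that size was outside the interval for most genes at each time. For the interactions this held for 18 and 25 genes.

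The genes with the smallest p in each comparison differed from time to time. At M0 it was Ctsk (wt relative to Treml4-/- 0.36, 95% interval 0.012 to 0.72, adjusted p = 1), whose libraries are given above. At M1-8 h it was Mitf (-0.45, -0.73 to -0.17, adjusted p = 0.155), with both wt libraries below both Treml4-/- libraries, followed by Atp6v1a (-0.41, adjusted p = 0.166). Without replicate 1 of Treml4-/- M1-8 h, Mitf passed (-0.59, adjusted p = 0.0454), and DEG among all genes went from 4 higher and 7 lower in wt to 24 and 575. Over the other alternatives the adjusted p of Mitf lay between 0.0896 and 0.663. The Mitf difference was -0.32 under median of ratios scaling and -0.18 after the GC and length correction, with or without the replicate block. At M1-12 h the smallest p was that of Manba (-0.65, -1.07 to -0.23, limma adjusted p = 0.334). Tfeb had differences of 0.14, -0.00083 and -0.27 at the 3 times, and Lipa of 0.0063, -0.13 and -0.12.

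**Figure D4:**
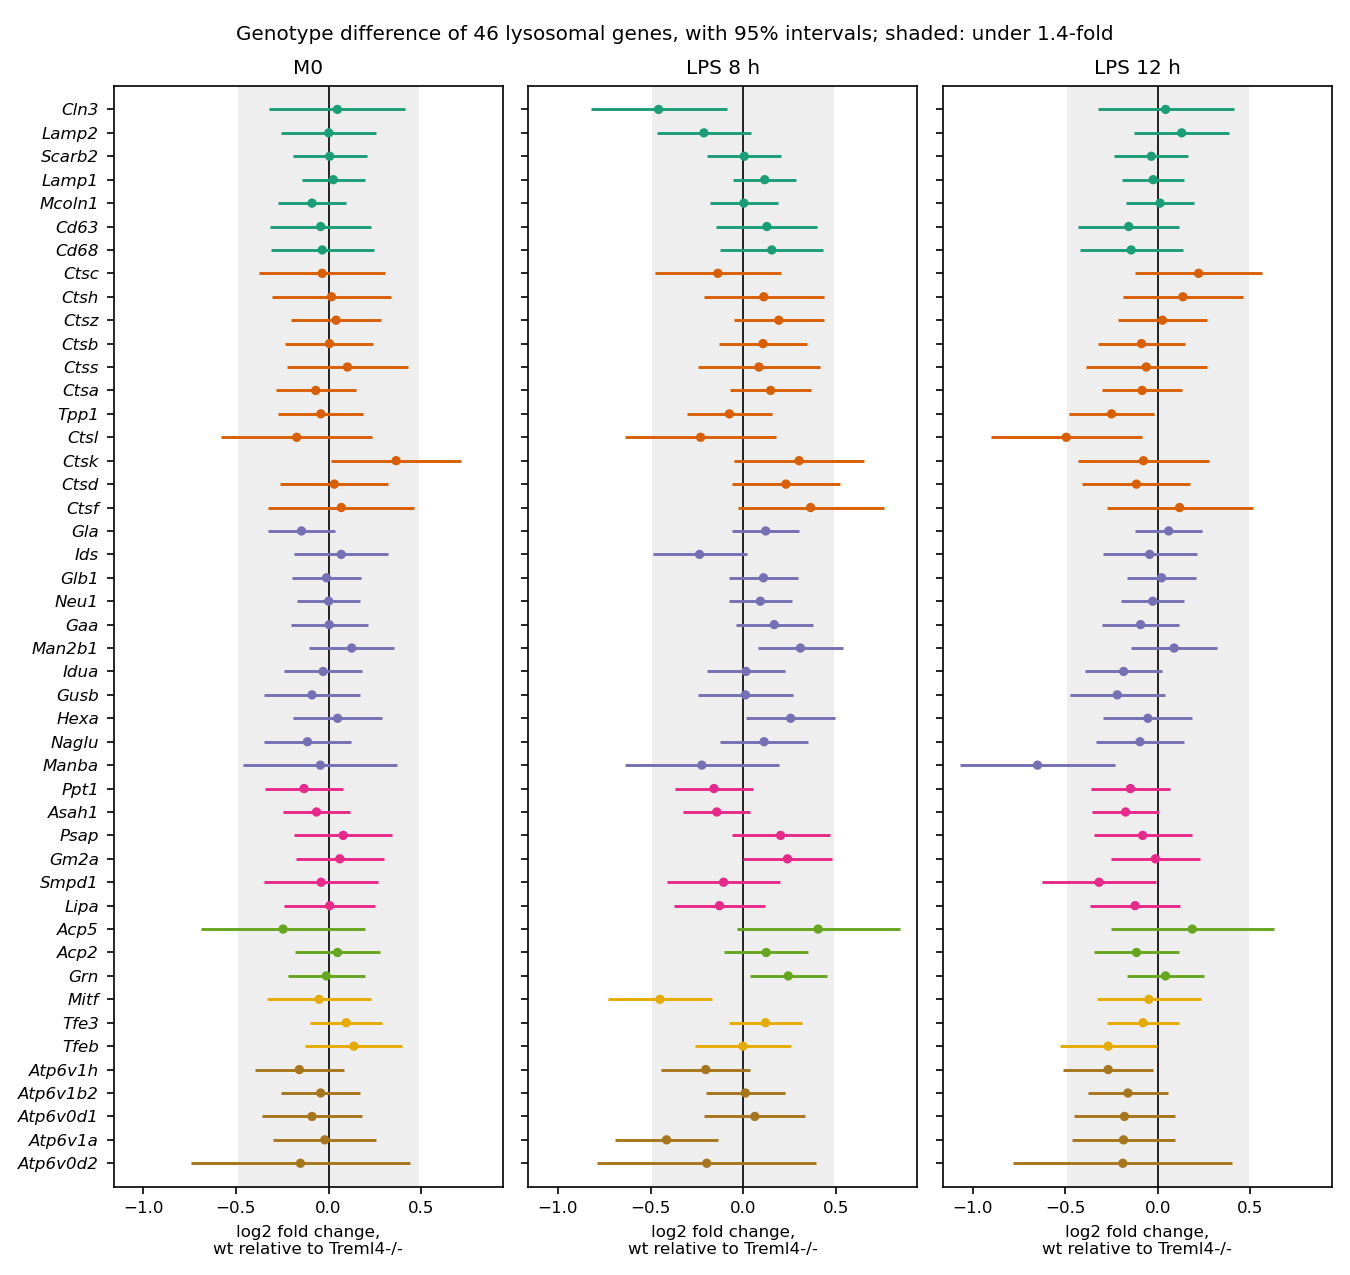
Log2 fold change of wt relative to Treml4-/- (x axis, log2 of CPM + 1) of the 46 genes in M0 cells and after 8 h and 12 h of LPS, with points for the difference between means of 2 libraries each, bars for 95% intervals and a shaded band for changes under 1.4-fold. No gene was a DEG, and 42, 33 and 37 of the 46 intervals lie inside the band at the 3 times.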

How the data were processed

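RNA from the 12 BMDM cultures was sequenced as stranded poly(A) libraries, which the authors aligned to mm10 with STAR (submitters' processing notes) and counted with Subread in the CCBR workflow. The annotation and whether strand was used in counting are not given in the sources used here. The values deposited by the authors are log2 CPM of 43280 gene symbols, with a prior count of 0.25 reads. The design had assumed CPM, so the log2 step was undone. Whole reads were recovered for 100% of values within 0.01 of a read, 48008751 to 58500792 per library.

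Genes reaching 1 CPM in 2 libraries (12086) were fitted as log2(CPM + 1) with limma 3.58.1 (trend, R 4.3.3), with 1 mean per condition and no block. p-values were adjusted by Benjamini-Hochberg over all of them, and DEG needed an adjusted p under 0.05 and 1.4-fold. Tables and plots used Python 3.11.15, pandas 2.3.3 and matplotlib 3.10.9. The fit was tested on simulated data. Alternatives were another pseudocount (0.1), other filters (none, 5 CPM), median of ratios scaling, quantile normalization, voom, the deposited values, no trend, fewer libraries, no fold limit, replicate blocks, correction for GC content and length, and leaving out each library. A 50 CPM filter and scaling over such genes were added after the data were seen. Positions come from GENCODE M21 (GRCm38), which named 40410 of the symbols, 941 of them through another symbol.

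The 46 genes and the other lists were chosen with earlier results of these data known. Values in each library are printed for 16 genes fixed by name and, in each LPS comparison, for up to 6 DEG in either direction with the largest change whose groups did not overlap. Other genes are given by their changes.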

Additional observations from a re-analysis of the deposited data

How the results depend on the processing

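Scaling decided the number of DEG in the LPS comparisons. Median of ratios scaling over genes of at least 50 CPM gave 28 and 30 DEG at the 2 times. In place of 37 DEG at M1-8 h there were 23 with median of ratios scaling and 24 (8 higher and 16 lower) after a GC and length correction, with or without the replicate block. In place of 35 at M1-12 h there were 23 and 22 (10 higher and 12 lower). With no minimum fold change the 10 DEG between M1-8 h and M1-12 h became 27. The shares of all genes called under the GC and length correction and with no minimum fold change are not given here. Whether those counts set the lysosomal genes apart from other genes was therefore not tested. Leaving out 1 library in turn gave 37 to 38, 34 to 36 and 8 to 12 DEG in these comparisons, 0 to 1 between genotypes at M1-8 h, where the 1 was Mitf without replicate 1 of Treml4-/- M1-8 h, and 0 to 0 in the other genotype comparisons. Among genes that were DEG by CPM or under the alternative, the sign of the log2 fold change turned under median of ratios scaling, to 0.13 for Lamp1, 0.065 for Mcoln1, 0.24 for Ctsb, 0.075 for Psap, 0.076 for Asah1, 0.22 for Grn, 0.14 for Tfe3, 0.11 for Atp6v0d1, 0.064 for Atp6v1a, 0.12 for Atp6v1b2 and 0.72 for Atp6v1h at M1-8 h, and to 0.26 for Lamp1, 0.027 for Cd68, 0.039 for Scarb2, 0.19 for Mcoln1, 0.55 for Ctsb, 0.20 for Ctsk, 0.093 for Gaa, 0.0048 for Ids, 0.22 for Neu1, 0.087 for Gm2a, 0.54 for Acp5, 0.55 for Grn, 0.17 for Tfe3, 0.29 for Atp6v0d1 and 0.033 for Atp6v1b2 at M1-12 h. It turned with the GC and length correction, and to the same values when the replicate block was added, to 0.099 for Lamp1, 0.079 for Mcoln1, 0.18 for Gaa, 0.20 for Neu1, 0.53 for Grn, 0.14 for Tfe3 and 0.12 for Atp6v0d1 at M1-12 h, and to 0.012 for Ctsa, 0.12 for Ctsb, 0.11 for Psap, 0.28 for Grn and 0.17 for Tfe3 at M1-8 h. The cause was not tested. Genes that were DEG under neither turned as well. Between M1-8 h and M1-12 h these were Tpp1, Glb1 and Tfe3 under median of ratios scaling. With the GC and length correction they were Ctsa, Tpp1, Glb1 and Atp6v0d2. In the LPS comparisons the others turned against M0. Under median of ratios scaling these were Scarb2 at M1-8 h (-0.47 to 0.32), Cln3 at M1-12 h (-0.42 to 0.42), Ctss at M1-12 h (-0.47 to 0.38), Ids at M1-8 h (-0.43 to 0.35), Acp2 at M1-8 h (-0.33 to 0.47) and Atp6v1a at M1-12 h (-0.39 to 0.46). With the GC and length correction they were Scarb2 at M1-8 h (-0.47 to 0.003), Cln3 at M1-12 h (-0.42 to 0.34), Ctsb at M1-12 h (-0.30 to 0.42), Acp2 at M1-8 h (-0.33 to 0.21), Acp5 at M1-12 h (-0.29 to 0.47) and Atp6v1a at M1-12 h (-0.39 to 0.086). Over all alternatives, 10062 values of single genes kept their sign, among them 103 that lost the call and 88 that gained one. The sign turned in 50 values of genes that were DEG in either fit, and in 63 LPS and 343 genotype values that were DEG in neither. The sample titles repeat the replicate numbers at each time within a genotype. Whether same-numbered libraries came from the same mouse or culture is not stated. The correlations between them, from -0.27 to 0.46, cannot decide this with 2 libraries in a condition. Deviations of same-numbered libraries correlated at 0.12, 0.06 and 0.41 between times in wt, at 0.46, -0.20 and -0.27 in Treml4-/-, and at -0.26, 0.30 and 0.06 between genotypes. The replicate number as a block gave 37, 35 and 10 DEG in the LPS comparisons and 0 between genotypes. With the culture as a random block, the correlation within blocks was estimated at 0.0414. No DEG of the LPS comparisons lost its call with that block. With 2 libraries in a condition, small genotype differences were not resolved, and replicates varied 12.0 to 55.6 times more than counting error (chi-square per degree of freedom).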

Other observations

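Genes of the lysosome outside the 46 held patterns that these do not, and the following were picked after their values were seen. V-ATPase subunits were not all lower under LPS. Atp6v1d, a subunit of the central stalk, had means of 84.3, 244 and 145 CPM at M0, M1-8 h and M1-12 h (log2 fold change 1.53 at M1-8 h), Atp6v0a2, a membrane subunit, 53.1, 98.9 and 80.0 CPM (0.88), and Atp6v1e1, of the peripheral stalk, 218, 378 and 259 CPM (0.79), and all 3 were DEG at M1-8 h on both scalings. So were Clcn7, the lysosomal chloride and proton exchanger (417, 828 and 877 CPM), M6pr, the cation-dependent mannose 6-phosphate receptor (622, 1396 and 1398 CPM), and the iron transporter Slc11a2 (74.9, 239 and 229 CPM).

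Several other genes were higher at M1-12 h than at M1-8 h. The hyaluronidase Hyal1 was at means of 7.46, 2.91 and 39.4 CPM, a log2 fold change of 3.36 between the M1 times. Hgsnat, an acetyltransferase of heparan sulfate breakdown, was at 361, 134 and 434 CPM (1.66), the cholesterol exporter Npc1 at 525, 92.6 and 208 CPM (1.15), and Slc11a1, a metal transporter of phagosomes, at 715, 343 and 647 CPM (0.92). The V-ATPase subunit Tcirg1 was at 557, 409 and 738 CPM (0.85), and all 5 were DEG between the M1 times on both scalings. Against M0 at M1-8 h, Hyal1, Hgsnat, Npc1 and Slc11a1 were lower by CPM, Hgsnat and Npc1 also under median of ratios scaling, and Tcirg1 was under the fold limit (-0.45, and 0.35 under median of ratios scaling).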
